A study of Mus musculus with 6 samples.

Results

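SR proteins and heterogeneous nuclear ribonucleoproteins (hnRNPs), together with a few partners, were compared between control HK-2 cells and HK-2 cells with USAG-1 overexpression. The set was chosen by gene symbol alone and no measured value entered the rule. Earlier results of these data were known when the set was chosen. It takes every numbered SRSF gene, the kinases CLK1 to CLK4, and TRA2A, TRA2B, PTBP1, PTBP2, PTBP3, RBFOX2, ESRP1, ESRP2, U2AF1 and U2AF2. It also takes symbols made of HNRNP, letters, an optional number and, as in HNRNPA2B1, an optional B1 or L1. Pseudogene copies with a P after a number, such as the 51 listed for HNRNPA1, are not matched. Of 39234 genes in the deposited table, 67 were members, of which 48 carried the symbols of genes and 19 those of pseudogene copies that the pattern also takes. HK-2 is an immortalized epithelial line from human proximal tubule. RNA was sequenced from 3 control libraries and 3 USAG-1-overexpressing libraries, all labelled wild type, kidney and proximal tubular epithelial cells. In the study's cell experiments USAG-1 was overexpressed transiently, the cells were purchased and STR authentication was not done, and the labels do not say what the control cells received or give a time of harvest. The organism label reads mouse, whereas the cell line and all gene identifiers are human.

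SR proteins bind exonic enhancers in pre-mRNA through RNA recognition motifs and recruit the spliceosome through domains rich in arginine and serine. TRA2A and TRA2B are related proteins with the same kind of domain that favour inclusion of exons. Many hnRNPs bind silencers and oppose exon inclusion, and they also package, export and stabilize mRNA. CLK kinases phosphorylate SR proteins in the nucleus, U2AF1 and U2AF2 form the heterodimer that recognizes the 3′ splice site, and PTBP, RBFOX and ESRP proteins steer programmes of exon choice that differ between tissues. Genes of SR proteins and of several hnRNPs also control their own output by splicing in exons with an early stop codon, which sends the transcript to nonsense-mediated decay. Counts per gene do not separate such isoforms from the coding mRNA, so the values here are levels of all transcripts of a gene together.

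The libraries held between 41236194 and 48699471 counted reads, and 18188 genes passed the filter on low counts and were tested. SOSTDC1, the gene that encodes USAG-1, had 79, 80 and 60 reads in the control libraries and 5072, 3907 and 4438 in the USAG-1-overexpressing ones. Its log2 fold change was 5.94 (SE 0.13, edgeR adjusted p = 6.96e-07). Among markers of the labelled cell type, PAX8 was present at 375 ± 8.57 CPM (counts scaled to a common library size, on the TMM scale) in control cells (SD, n = 3), KRT8 was the most abundant epithelial keratin on the list, CDH1 was at or near 0, and LRP2 had no read in any library. All 12 markers of T and NK cells were lower in USAG-1-overexpressing cells, with a summed level of 77.6 to 95.5 CPM in control libraries and 5.82 to 8.45 CPM in the others. The share of counts on mitochondrially encoded genes was 4.80 to 5.59% in control and at most 1.55% in USAG-1-overexpressing libraries. Summed levels of kidney epithelial markers were 484 to 517 CPM in control and 628 to 649 CPM with overexpression. Those of fibroblast and endothelial markers were 37.1 to 41.0 CPM and 52.2 to 54.0 CPM. Most of the latter sums was LUM, at a mean of 33.6 CPM in control and 49.8 CPM with overexpression. The other 2 members of that list tested, PECAM1 and PDGFRB, had log2 fold changes of -0.61 and -0.39 and were not called. Myeloid markers (49.6 to 107 CPM in control, 38.2 to 70.9 CPM with overexpression), B cell markers (5.63 to 7.31 CPM and 4.01 to 7.48 CPM) and platelet and erythroid markers (8.19 to 109 CPM and 8.43 to 76.8 CPM) overlapped between groups in their sums. Of 7 myeloid markers, ITGAM and LYZ were called lower without overlap, with log2 fold changes of -1.20 and -0.73 (edgeR adjusted p = 0.00754 and 0.0439), and the abundant S100A8 and S100A9 overlapped. The part of these differences in the results on splicing factors was not tested. In bulk RNA, fewer cells of a type and less RNA per cell cannot be told apart.

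Control replicate 3 stood apart from the other control libraries. It was the lowest of all 6 libraries for 12 of 54 members tested and the highest for 20. Over all genes tested it was the lowest for 25% and the highest for 25.5%. The median coefficient of variation was 8.39% for members among control libraries against 3.86% among USAG-1-overexpressing ones, and 12.8% against 7.86% for all genes. Long RNAs that stay in the nucleus, with MALAT1 and NEAT1 the most abundant, summed to 755, 743 and 418 CPM in control replicates 1, 2 and 3 and to 478, 422 and 445 CPM in the USAG-1-overexpressing libraries. In this sum control replicate 3 lay below every other library, by little from USAG-1-overexpressing replicate 2. For 1 of the 4 such RNAs tested, all control libraries lay above all USAG-1-overexpressing ones. Results are therefore given with all libraries and, where it changes a call, without control replicate 3.

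RNA of 8 of 12 SR proteins and of both TRA2 genes was lower in USAG-1-overexpressing cells, while most hnRNPs did not pass the test. A gene was called where edgeR's quasi-likelihood test gave an adjusted p under 0.05 at any fold change, with the Benjamini-Hochberg procedure run over all genes tested. Of 54 members tested, 13 were called lower and 1 higher, that is 25.9% of them, beside 15.9% of all genes tested. The background was 6.91% for calls lower and 8.95% for calls higher. The median log2 fold change (USAG-1 overexpression over control) was -0.09 over the members and -0.02 over all genes. The groups did not overlap for 24 members, 19 lower and 5 higher, against a background of 37.6% of all genes (18.1% lower, 19.4% higher). Leaving out 1 library changed these counts. There were 13 members called without control replicate 1 and 10 without control replicate 2, and 9, 8 and 9 without USAG-1-overexpressing replicates 1, 2 and 3 (backgrounds 10.2%, 8.74%, 6.92%, 5.98% and 7.09%). Without control replicate 3 there were 27, 19 lower and 8 higher, and the background rose to 27.0% (11.2% lower, 15.8% higher). All 14 members called with 6 libraries were among those 27, in the same direction. DESeq2's Wald test called 15 members, these 14 and HNRNPC, with 14 lower and 1 higher, beside 20.3% of its genes (8.90% lower, 11.4% higher).

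By role, the calls lower comprised 8 of 12 SR proteins, both TRA2 genes, 1 of 2 U2AF subunits and 2 of 20 hnRNPs tested, and the call higher was ESRP2. None of the CLK kinases, the PTBP genes or the 8 pseudogene copies tested was called by edgeR, DESeq2 or limma-voom, and at an unadjusted p under 0.05 edgeR gave 1 CLK kinase, 0 PTBP genes and 0 pseudogenes. The median log2 fold change was -0.32 over the SR proteins (range -0.84 to 0.08) and -0.01 over the hnRNPs (range -0.35 to 0.22). Of the SR and TRA2 genes pooled, 10 of 14 were called lower, a share of 71.4% beside the background of 6.91%. That count was 9 without control replicate 1, 7 without control replicate 2, 11 without control replicate 3 and 6 without any single USAG-1-overexpressing library, where 4.41%, 3.75%, 11.2% and, in order of the replicate left out, 3.16%, 2.67% and 3.08% of all genes were called lower. When library sizes were computed without the mitochondrial genome, 9 of the 14 were called lower. In that fit 16.0% of all genes were called in either direction, and 57.3% of those calls were higher. Whether SR proteins and hnRNPs differ as classes was not tested.

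**Figure D1:**
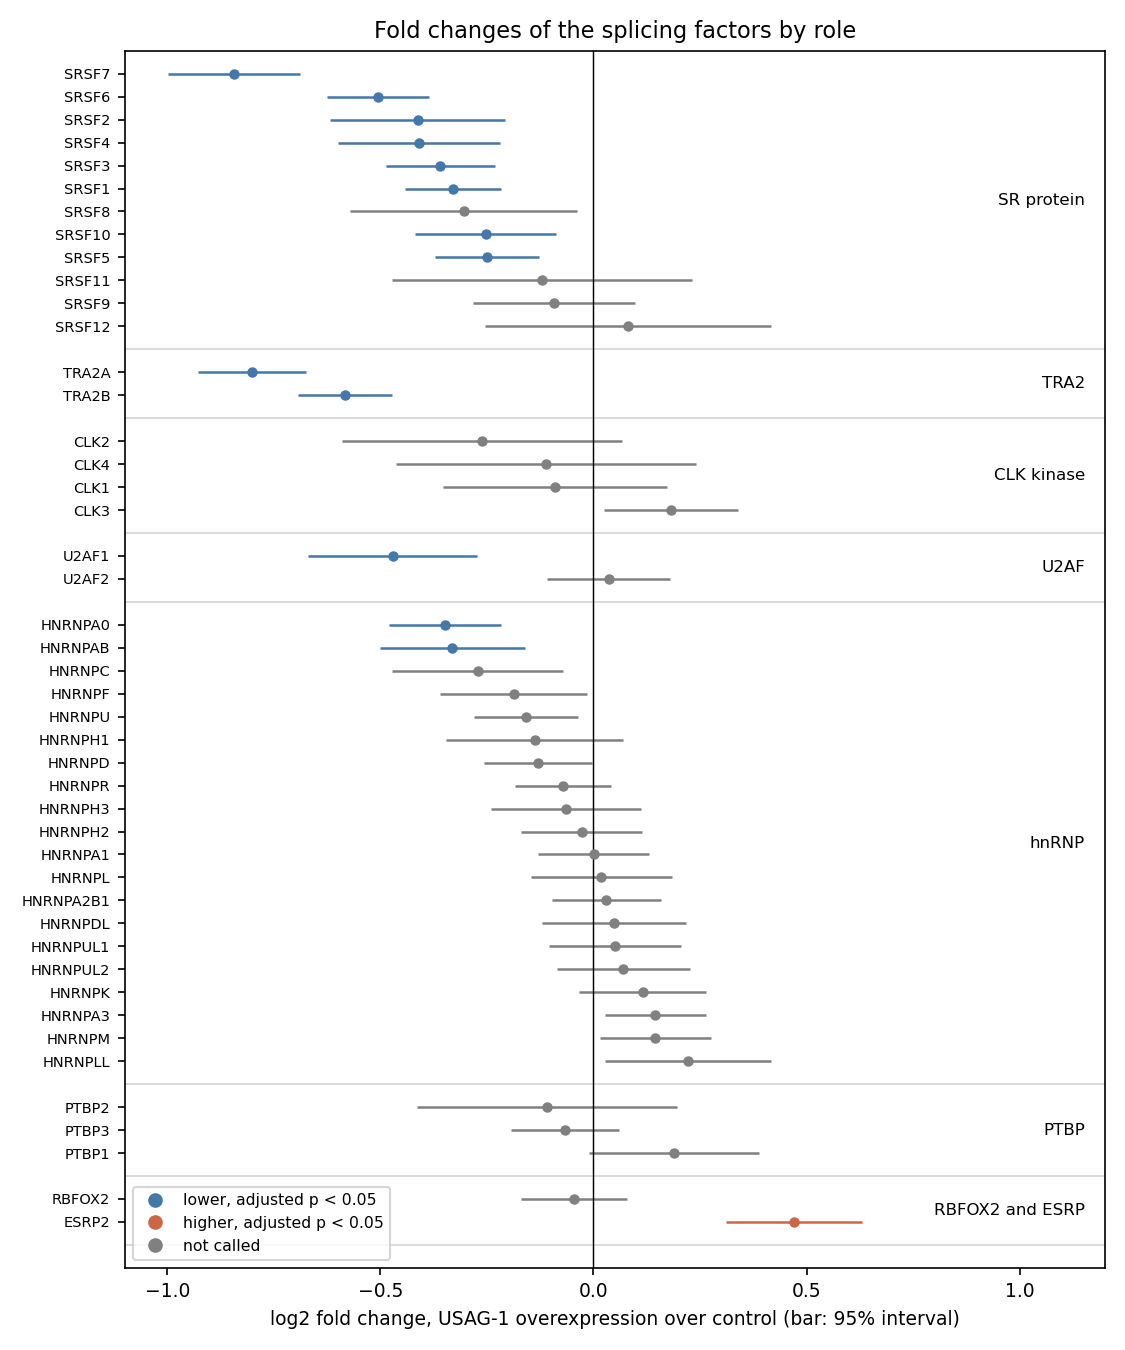
Log2 fold change of each member (x axis, USAG-1 overexpression over control, 3 libraries per group) with its 95% interval, grouped by role. Blue marks genes called lower, orange genes called higher and grey genes not called. Pseudogene copies and ESRP1, with under 1 CPM in every library, are not drawn. The points of SR proteins and TRA2 genes lie left of 0 apart from SRSF12, and those of hnRNPs lie on both sides.

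The largest fall belonged to SRSF7 (ENSG00000115875, chromosome 2, 38743599 to 38751494), an SR protein with a zinc knuckle that also takes part in mRNA export and polyadenylation. Positions are those of the deposited table, for which the submitters' notes name build hg38. SRSF7 measured 200.3, 197 and 223 CPM in control replicates 1, 2 and 3 and 117, 110.0 and 118 CPM in the USAG-1-overexpressing ones. Every USAG-1-overexpressing library lay far below every control library. The log2 fold change was -0.84 (SE 0.068, edgeR adjusted p = 0.000385), a fall of 44.3%. SRSF3 (ENSG00000112081, chromosome 6, 36594353 to 36605600), the small SR protein most like SRSF7 in its RNA-binding part, measured 412, 416 and 453 CPM in control and 333, 334 and 331 CPM with overexpression. Its USAG-1-overexpressing libraries were nearly equal, and the log2 fold change was -0.36 (SE 0.056, edgeR adjusted p = 0.00496).

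TRA2A (ENSG00000164548, chromosome 7, 23504780 to 23532041) and TRA2B (ENSG00000136527, chromosome 3, 185914558 to 185938029) are paralogs that bind similar purine-rich enhancers. TRA2A measured 87.7, 86.5 and 87.1 CPM in control libraries and 51.2, 48.6 and 50.2 CPM with overexpression. TRA2B measured 427, 424 and 417 CPM and then 279, 281 and 287 CPM. Replicates of both genes were tight, control replicate 3 included, and the groups were well separated. The log2 fold change was -0.80 for TRA2A (SE 0.055, edgeR adjusted p = 0.000186) and -0.58 for TRA2B (SE 0.048, edgeR adjusted p = 0.000436). Leaving out control replicate 3 gave -0.79 and -0.59.

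SRSF6 and SRSF4 are SR proteins of the same subfamily, with long arginine and serine rich domains. SRSF6 (ENSG00000124193, chromosome 20, 43457893 to 43464243) measured 283, 293 and 301 CPM in control and 202, 207 and 208 CPM with overexpression. SRSF4 (ENSG00000116350, chromosome 1, 29147743 to 29181900) measured 127, 129 and 106 CPM and then 88.9, 93.4 and 90.5 CPM. The lowest control library for SRSF4 was replicate 3, which still lay above all USAG-1-overexpressing libraries. SRSF6 had a log2 fold change of -0.51 (SE 0.052, edgeR adjusted p = 0.000991). For SRSF4 it was -0.41 (SE 0.083, edgeR adjusted p = 0.0139). SRSF5 (ENSG00000100650, chromosome 14, 69726900 to 69772005), the third member of this subfamily, measured 145, 148 and 148 CPM in control and 126, 119 and 124.7 CPM with overexpression. Its groups were also apart, by a smaller step, with a log2 fold change of -0.25 (SE 0.053, edgeR adjusted p = 0.0170). SRSF4 and SRSF5 lost the call without control replicate 2 (edgeR adjusted p = 0.0515 and 0.0630) and without any one USAG-1-overexpressing library (0.0588 to 0.0705 for SRSF4 and 0.0667 to 0.0924 for SRSF5).

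SRSF1 (ENSG00000136450, chromosome 17, 58000919 to 58007261) and SRSF2 (ENSG00000161547, chromosome 17, 76734115 to 76737333) were the first SR proteins to be described, and both act in constitutive and alternative splicing. SRSF1 measured 451, 457 and 465 CPM in control libraries and 361, 374 and 358 CPM in the others. The groups were clear of each other, and the log2 fold change was -0.33 (SE 0.050, edgeR adjusted p = 0.00428). SRSF2 measured 356, 358 and 438 CPM in control and 279, 306 and 280.4 CPM with overexpression. Control replicate 3 was the highest library for SRSF2, and the other control libraries also lay above the USAG-1-overexpressing ones. Its log2 fold change was -0.41 (SE 0.090, edgeR adjusted p = 0.0186), and -0.30 without control replicate 3. The call was lost without any one USAG-1-overexpressing library (edgeR adjusted p = 0.0568 to 0.0888).

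SRSF10 (ENSG00000188529, chromosome 1, 23964347 to 23980927), which represses splicing when it is dephosphorylated, as in heat shock, measured 214, 220.3 and 185 CPM in control and 175, 172 and 173 CPM with overexpression. All its USAG-1-overexpressing libraries were below the lowest control library, replicate 3. The log2 fold change was -0.25 (SE 0.072, edgeR adjusted p = 0.0494). SRSF10 was the member nearest to the threshold. Its adjusted p was 0.137 without control replicate 1, 0.152 without control replicate 2, 0.000247 without control replicate 3 and between 0.146 and 0.166 without 1 of the USAG-1-overexpressing libraries (edgeR).

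The SR proteins SRSF8, SRSF9, SRSF11 and SRSF12 were not called. SRSF11, which contacts U2AF and tissue-specific regulators of small exons, measured 201, 195 and 128 CPM in control and 159, 157 and 167 CPM with overexpression. Control replicate 3 was the lowest library and the other control libraries were the highest, so the groups overlapped. The log2 fold change was -0.12 (95% interval -0.47 to 0.23, edgeR adjusted p = 0.649), and -0.30 without control replicate 3, when the gene was called lower (edgeR adjusted p = 0.00108). SRSF9, which antagonizes some hnRNP A1 effects on exon choice, measured 126, 134 and 156 CPM and then 131, 127 and 133 CPM, which overlapped (log2 fold change -0.09, edgeR adjusted p = 0.502). GATC on the opposite strand overlaps SRSF9 and had 37.6% as many counts, so reads shared between these genes make the SRSF9 value uncertain. SRSF8 did not overlap between groups, with 13.3 to 15.1 CPM in control and 10.1 to 12.4 CPM with overexpression (log2 fold change -0.30, edgeR adjusted p = 0.117). SRSF12, at 4.10 to 4.38 CPM in control and 4.03 to 4.76 CPM with overexpression, had a log2 fold change of 0.08.

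**Figure D2:**
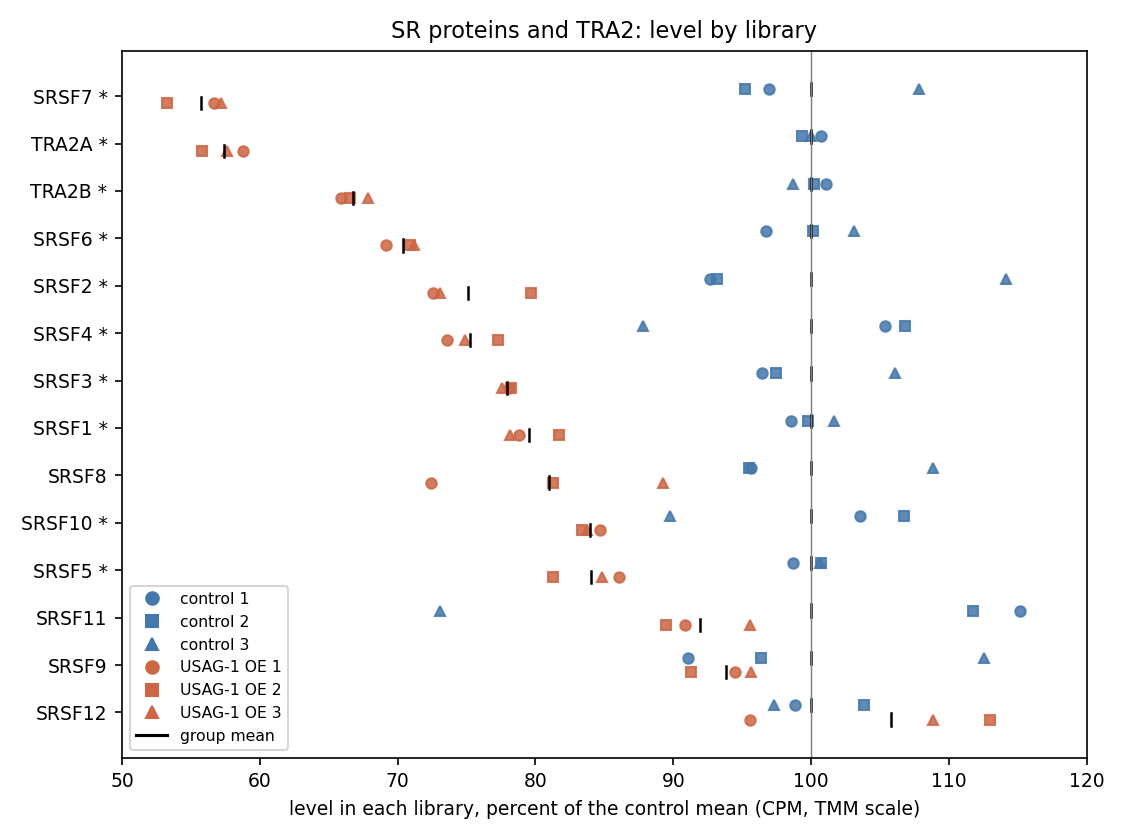
Level of each SR protein and TRA2 gene in every library as a percent of the gene's control mean (x axis, from CPM, not starting at 0), with control libraries in blue, USAG-1-overexpressing libraries in orange and a black tick at the group mean. Circles, squares and triangles are replicates 1, 2 and 3. An asterisk marks the 10 genes called lower, in which all orange points lie left of all blue points. In SRSF11 the blue triangle of control replicate 3 lies left of the orange points.

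Summed over the 12 SR proteins, the level was 2532, 2564 and 2623 CPM in control libraries and 1986, 2015 and 2000.2 CPM in USAG-1-overexpressing ones. The sum with overexpression was 77.7% of the control sum, and control replicate 3 did not stand below the other control libraries here. For TRA2A and TRA2B together the sums were 515, 510.4 and 504 CPM in control and 329.7, 330.0 and 337 CPM with overexpression, or 65.2% of control. The hnRNPs summed to 10238, 10203 and 10596 CPM and then 10062, 9897 and 10036 CPM, or 96.6% of control. This was a small step in which the groups did not overlap. CLK kinases summed to 134, 128 and 104 CPM in control and 122, 115 and 115 CPM with overexpression, within the spread of the control libraries.

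**Figure D3:**
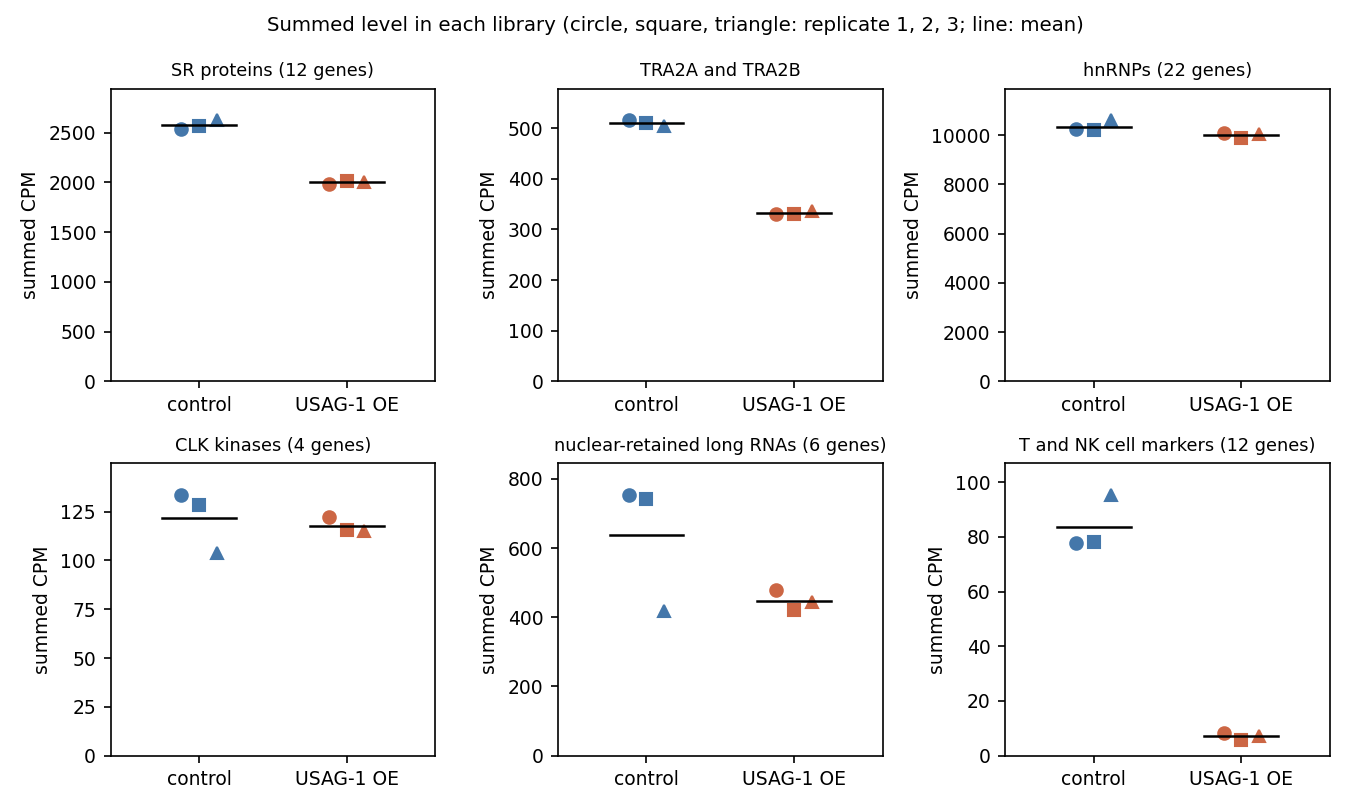
Summed CPM (y axis from 0) of 4 groups of splicing factors, of nuclear-retained long RNAs and of T and NK cell markers in every library. Circles, squares and triangles are replicates 1, 2 and 3, and the line is the group mean. SR proteins and TRA2 genes step down with overexpression in every library, hnRNPs stay between 9897 and 10596 CPM, and the triangle of control replicate 3 falls to the level of the overexpressing libraries for nuclear-retained RNAs.

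None of the 4 CLK kinases was called. CLK2 measured 46.2, 46.4 and 31.7 CPM in control and 35.7, 31.8 and 36.2 CPM with overexpression. Control replicate 3 sat with the USAG-1-overexpressing libraries, and the log2 fold change was -0.26 (95% interval -0.59 to 0.07, edgeR adjusted p = 0.263). Without control replicate 3 it was -0.41, and CLK2 was called lower (edgeR adjusted p = 0.00214). HCN3 on the opposite strand overlaps CLK2 with 27.3% as many counts, which makes its value uncertain too. CLK3 measured 42.9, 38.4 and 37.9 CPM in control and 45.5, 45.3 and 44.4 CPM with overexpression, higher without overlap but not past the threshold (log2 fold change 0.18, edgeR adjusted p = 0.115). The gene EDC3 lies over CLK3 on the opposite strand with 103% as many counts, so the CLK3 value is uncertain. CLK1 ranged from 25.9 to 33.7 CPM in control and 26.1 to 31.1 CPM with overexpression, and CLK4 from 7.95 to 10.9 CPM and 8.41 to 10.1 CPM. Both had control replicate 3 as their lowest library. Their log2 fold changes were -0.09 and -0.11. They were -0.02 and -0.04 without control replicate 1, -0.05 and -0.04 without control replicate 2, and -0.19 and -0.24 without control replicate 3, with no call in any of these fits.

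The subunits of the U2AF heterodimer differed in their calls. U2AF1 (ENSG00000160201, chromosome 21, 43092956 to 43107570), which contacts the AG at the 3′ splice site, measured 72.6, 67.6 and 83.8 CPM in control and 55.2, 51.3 and 55.0 CPM with overexpression. All USAG-1-overexpressing libraries lay below the lowest control library, with a log2 fold change of -0.47 (SE 0.087, edgeR adjusted p = 0.00973). U2AF2, which binds the polypyrimidine tract, measured 417, 420.5 and 474 CPM and then 452, 447 and 446 CPM. Its groups overlapped and the log2 fold change was 0.04 (95% interval -0.11 to 0.18, edgeR adjusted p = 0.752). The call on U2AF1 was lost without USAG-1-overexpressing replicate 2 (edgeR adjusted p = 0.0609), and U2AF2 was called higher without control replicate 3, with a log2 fold change of 0.10 (edgeR adjusted p = 0.0255). A difference between the subunits in their response was not tested.

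Of 20 hnRNPs tested, HNRNPA0 and HNRNPAB were called lower and none higher, a share of 10% beside the background of 15.9%. At an unadjusted p under 0.05 edgeR gave 3 hnRNPs higher, and DESeq2 and limma-voom called none higher. HNRNPA0 (ENSG00000177733, chromosome 5, 137745651 to 137754363), an intronless gene for a protein that binds AU-rich elements of mRNA, measured 157, 161 and 164 CPM in control and 122, 132 and 124 CPM with overexpression. Its groups were well apart, with a log2 fold change of -0.35 (SE 0.057, edgeR adjusted p = 0.00600). HNRNPAB (ENSG00000197451, chromosome 5, 178204533 to 178211163), a protein of the AUF1-like subfamily, measured 379, 393 and 449 CPM and then 336, 309.8 and 324 CPM. Control replicate 3 was its highest library, and the other control libraries were also above all USAG-1-overexpressing ones. The log2 fold change was -0.33 (SE 0.074, edgeR adjusted p = 0.0208). The HNRNPAB call was lost without control replicate 2 (edgeR adjusted p = 0.0514) and without any one USAG-1-overexpressing library (0.0647 to 0.106).

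The other 18 hnRNPs tested had log2 fold changes between -0.27 and 0.22, 8 below 0 and 10 above. HNRNPA1, the best known splicing repressor of the family, measured 1324, 1319 and 1431 CPM in control and 1379.8, 1296 and 1399.8 CPM with overexpression. Its groups overlapped fully, and the log2 fold change was 0.00 (95% interval -0.13 to 0.13, edgeR adjusted p = 0.997). The table lists 51 pseudogenes of HNRNPA1 whose counts came to 8.17% of those of the gene, and how reads shared by such copies were assigned is not given in the sources used here. HNRNPU, a nuclear scaffold protein that binds chromatin and RNA, measured 1313, 1354 and 1239.6 CPM and then 1199, 1155 and 1146 CPM. It was lower without overlap and not past the threshold (log2 fold change -0.16, 95% interval -0.28 to -0.04, edgeR adjusted p = 0.0821). HNRNPC, which sequesters uridine-rich cryptic exons, measured 823, 807 and 1014 CPM in control and 729, 737 and 724 CPM with overexpression. Control replicate 3 was far above the rest, and the log2 fold change was -0.27 (95% interval -0.47 to -0.07, edgeR adjusted p = 0.0725) or -0.15 without that library.

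The remaining hnRNPs split in direction. HNRNPD, HNRNPF and HNRNPR were lower without overlap, with log2 fold changes of -0.13, -0.19 and -0.07 and edgeR adjusted p of 0.155, 0.133 and 0.375. HNRNPA3, HNRNPM and HNRNPLL were higher without overlap, with 0.14, 0.15 and 0.22 and edgeR adjusted p of 0.0967, 0.121 and 0.118. With the genes above, 10 hnRNPs did not overlap between groups, 7 lower and 3 higher, beside the background of 37.6%. HNRNPLL is a regulator of exon choice best known from lymphocytes, and it measured 17.3, 17.7 and 19.3 CPM in control and 21.8, 21.6 and 19.9 CPM with overexpression. HNRNPK, which binds cytosine-rich RNA, measured 886, 878 and 1010.2 CPM and then 1001, 1011 and 992 CPM. Control replicate 3 of HNRNPK lay among the USAG-1-overexpressing libraries, and the log2 fold change was 0.12 (edgeR adjusted p = 0.273). HNRNPA2B1, HNRNPDL, HNRNPH1, HNRNPH2, HNRNPH3, HNRNPL, HNRNPUL1 and HNRNPUL2 overlapped between groups, with log2 fold changes of -0.14 to 0.07. Genes that overlap on the same strand had 23.7% as many counts as HNRNPH2 and 14% as many as HNRNPUL2, which leaves those values uncertain. Genes that overlap HNRNPA3 and HNRNPA2B1, nearly all of their counts on the opposite strand, had 22.6% and 20.8% as many counts, and these values are uncertain likewise. HNRNPCL3 had 4 reads in control replicate 1 and none elsewhere, and HNRNPCL4 had none, so neither was tested.

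Leaving out 1 library moved the count of hnRNPs called from 2 to between 1 and 10. It was 2 without control replicate 1, and 1 without control replicate 2 or without any single USAG-1-overexpressing library. The backgrounds were 10.2% and 8.74% without control replicates 1 and 2. They were 6.92%, 5.98% and 7.09% without USAG-1-overexpressing replicates 1, 2 and 3. Without control replicate 3 there were 10, of which HNRNPK, HNRNPM, HNRNPA3, HNRNPLL and HNRNPUL1 were higher and HNRNPA0, HNRNPAB, HNRNPH1, HNRNPU and HNRNPC lower. The background in that fit was 27.0% (11.2% lower, 15.8% higher).

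PTBP genes encode polypyrimidine tract binding proteins, repressors of exons that are skipped outside neurons and muscle. PTBP1 measured 651, 676 and 816 CPM in control and 799.9, 848 and 795 CPM with overexpression. Control replicate 3 fell among the USAG-1-overexpressing libraries, and the log2 fold change was 0.19 (95% interval -0.01 to 0.39, edgeR adjusted p = 0.185). Without control replicate 3 it was 0.30 and PTBP1 was called higher (edgeR adjusted p = 0.000384). PTBP3 measured 334, 325 and 308 CPM and then 311, 314 and 298 CPM, with overlap (log2 fold change -0.07, 95% interval -0.19 to 0.06, edgeR adjusted p = 0.467). PTBP2, the neuronal paralog, measured 39.9, 44.6 and 30.2 CPM and then 37.6, 34.8 and 34.0 CPM. Its groups overlapped through control replicate 3 (log2 fold change -0.11), and without that library it was called lower at -0.25 (edgeR adjusted p = 0.0267).

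ESRP2 (ENSG00000103067, chromosome 16, 68229033 to 68238102), an epithelial splicing regulatory protein, was the member called higher. It measured 36.4, 34.4 and 37.8 CPM in control and 47.3, 51.3 and 51.9 CPM with overexpression. Every USAG-1-overexpressing library lay above every control library, and the log2 fold change was 0.47 (SE 0.069, edgeR adjusted p = 0.00385), a rise of 38.6%. Genes annotated on the same strand within ESRP2 had 15.9% as many counts, and reads shared with them make its value uncertain to that extent. Its paralog ESRP1 was at 0.281 to 0.599 CPM in control and 0.160 to 0.579 CPM with overexpression, too low for a useful comparison (95% interval of the log2 fold change -1.25 to 1.40, edgeR adjusted p = 0.950). RBFOX2, which binds GCAUG motifs beside alternative exons, measured 132, 129 and 123 CPM and then 123 to 125 CPM. Those groups overlapped and the log2 fold change was -0.05 (95% interval -0.17 to 0.08, edgeR adjusted p = 0.622).

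Of the 19 pseudogene copies, 8 were tested and 11 had too few reads. HNRNPKP4 had 799, 947 and 1157 reads in control and 1001, 993 and 1254 with overexpression (log2 fold change 0.17, edgeR adjusted p = 0.540). HNRNPCP2 had 733, 872 and 1016 reads and then 773, 847 and 784 (log2 fold change -0.12, edgeR adjusted p = 0.604). Groups overlapped for both, and for the other 6 pseudogenes tested.

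Fold changes with and without control replicate 3 lay close to each other for the genes with the largest falls, SRSF7, TRA2A, TRA2B and SRSF6. SRSF7 moved from -0.84 to -0.78 and SRSF6 from -0.51 to -0.48. Some uncalled genes moved more against their size, among them SRSF11, CLK2, PTBP1 and PTBP2. Among called genes, U2AF1 moved from -0.47 to -0.37, HNRNPAB from -0.33 to -0.25 and SRSF2 from -0.41 to -0.30. SRSF4 moved away from 0, from -0.41 to -0.49, as did SRSF10, from -0.25 to -0.32, and ESRP2, from 0.47 to 0.51. SRSF1, SRSF3, SRSF6, SRSF7, TRA2A, TRA2B, HNRNPA0 and ESRP2 were called in all 14 alternative fits, in the same direction. SRSF10 was called in 4 of those 14.

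**Figure D4:**
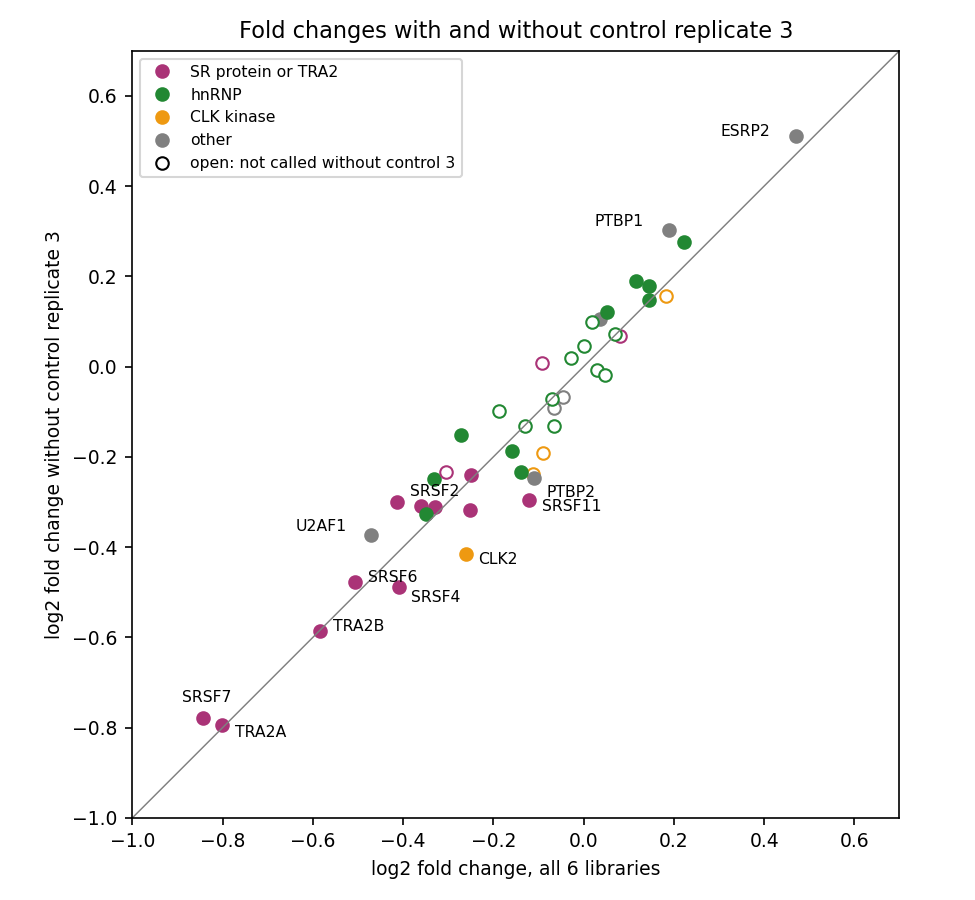
Log2 fold change of each member without control replicate 3 (y axis) against the value from all 6 libraries (x axis), pseudogene copies and ESRP1 left out. Filled points were called without control replicate 3, and the line marks equal values. SRSF7, TRA2A, TRA2B and SRSF6 lie near the line, and SRSF11 and CLK2 lie below it.

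The rest of the splicing machinery was described through 5 lists of genes. Of 46 core snRNP proteins tested, 4 were called higher and 3 lower, a share of 15.2% beside the background of 15.9%, and the median log2 fold change was -0.02. SF3A1 and SF3B1, subunits of the U2 particle that binds the branch point, were higher. SF3A1 measured 193, 181 and 203 CPM in control and 250.0, 253 and 242 CPM with overexpression (log2 fold change 0.37, edgeR adjusted p = 0.00578). SF3B1 measured 303, 303 and 297 CPM and then 373, 373 and 353 CPM (log2 fold change 0.28, edgeR adjusted p = 0.00880). Both were higher in every USAG-1-overexpressing library. LSM5, SNRPD1 and SNRPB, of the rings that bind snRNAs, were called lower, with log2 fold changes of -0.32, -0.33 and -0.43. Their edgeR adjusted p were 0.0181, 0.0381 and 0.0494, so the SNRPB call lay just inside the threshold. SNRPB measured 284, 300 and 400 CPM in control replicates 1, 2 and 3 and 230, 248 and 253 CPM with overexpression. Control replicate 3 was far above the rest for SNRPB. Groups did not overlap for 22 genes of the list, 15 lower and 7 higher, beside the background of 37.6%. The call on SF3B1 was lost without USAG-1-overexpressing replicate 1 or 2 (edgeR adjusted p = 0.0568 and 0.0550). The count for the list was 4 without control replicate 1, 3 without control replicate 2, 22 without control replicate 3, and 1, 2 and 2 without USAG-1-overexpressing replicates 1, 2 and 3. The backgrounds of these fits, in the same order, were 10.2%, 8.74%, 27.0%, 6.92%, 5.98% and 7.09% of all genes, and they hold for the lists that follow too.

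Of 42 proteins of the PRP19 complex, the catalytic steps and the exon junction complex, 4 were called higher and 5 lower, a share of 21.4% beside the background of 15.9% (8.95% higher, 6.91% lower), with a median log2 fold change of -0.02. DDX46, a helicase that acts on the U2 particle, measured 112, 113 and 92.1 CPM in control and 143, 144 and 140.2 CPM with overexpression (log2 fold change 0.43, edgeR adjusted p = 0.0121). CWC27, a cyclophilin-like protein of the spliceosome, measured 24.7, 24.6 and 21.2 CPM and then 30.8, 30.0 and 33.2 CPM (log2 fold change 0.41, edgeR adjusted p = 0.0162). Both genes were higher in every USAG-1-overexpressing library, and both calls were lost without any one of those libraries (edgeR adjusted p = 0.0506 to 0.0771). The exon junction core genes RBM8A, MAGOH and MAGOHB were among the 5 called lower, with log2 fold changes of -0.28, -0.23 and -0.30. For the list the count was 3 without control replicate 1, 4 without control replicate 2, 18 without control replicate 3 (background 27.0%) and 0 without any one USAG-1-overexpressing library, where 11, 11 and 12 of its genes had an unadjusted p under 0.05 in edgeR.

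Among 55 other regulators of alternative splicing tested, 7 were called higher and 8 lower, a share of 27.3% beside the background of 15.9% (8.95% higher, 6.91% lower), with a median log2 fold change of -0.06. RBM47, an epithelial RNA-binding protein, measured 51.8, 49.6 and 47.4 CPM in control and 93.2, 95.6 and 90.9 CPM with overexpression (log2 fold change 0.91, edgeR adjusted p = 0.000156). MBNL2, a muscleblind protein, measured 32.7, 33.0 and 29.8 CPM and then 55.9, 60.2 and 55.3 CPM (log2 fold change 0.84, edgeR adjusted p = 0.000436). Both rose in every library, as did MBNL1 with a log2 fold change of 0.43. CELF2, known from T cells, muscle and brain, fell with a log2 fold change of -1.80. CELF2 measured 4.30 to 5.13 CPM in control and 1.11 to 1.70 CPM with overexpression, and the summed T and NK cell markers given above were lower in the same libraries. Their part in the CELF2 value was not tested. Without control replicates 1, 2 and 3 the count for the list was 11, 10 and 29 (backgrounds 10.2%, 8.74% and 27.0%), and it was 8, 7 and 7 without the USAG-1-overexpressing replicates in order.

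Of 20 SR protein kinases, phosphatases and import factors, 5 were called higher and none lower, a share of 25% beside the background of 15.9% (8.95% higher, 6.91% lower), with a median log2 fold change of 0.02. No gene of this list was lower at an unadjusted p under 0.05 in edgeR, and DESeq2 and limma-voom called none lower either, whereas 4 were called lower without control replicate 3, where 11.2% of all genes were. TNPO1, an import receptor for hnRNP A1 and other cargoes, measured 206, 197 and 197 CPM in control and 269, 259.8 and 259 CPM with overexpression (log2 fold change 0.39, edgeR adjusted p = 0.00254). DYRK1B, a kinase related to the CLK family, measured 6.95, 7.17 and 8.33 CPM and then 11.5, 12.2 and 11.2 CPM (log2 fold change 0.64, edgeR adjusted p = 0.0100). TNPO3, the import receptor for SR proteins, SRPK2, which phosphorylates SR proteins in the cytoplasm, and TOP1 were also called higher, with log2 fold changes of 0.20, 0.23 and 0.25. All 5 moved opposite to the 8 SR proteins called. DYRK1B lost its call without USAG-1-overexpressing replicate 2 (edgeR adjusted p = 0.0550). The count for the list was 2 without control replicate 1 or 2, 11 without control replicate 3 (background 27.0%), and 2, 1 and 2 without the USAG-1-overexpressing replicates in order.

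Of 18 factors of nonsense-mediated decay, the pathway that removes transcripts with early stop codons, 4 were called higher and 1 lower, a share of 27.8% beside the background of 15.9% (8.95% higher, 6.91% lower), with a median log2 fold change of 0.09. DCP2, a decapping enzyme that also acts in general mRNA decay, measured 52.8, 49.6 and 40.2 CPM in control and 29.6, 31.8 and 29.0 CPM with overexpression (log2 fold change -0.66, edgeR adjusted p = 0.00534). DCP2 was lower in every USAG-1-overexpressing library. Genes called higher included UPF2, SMG5 and XRN1, with log2 fold changes of 0.47, 0.31 and 0.37. The count for the list was 2 without control replicate 1, 9 without control replicate 3 (background 27.0%), and 1 without control replicate 2 or any one USAG-1-overexpressing library.

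**Figure D5:**
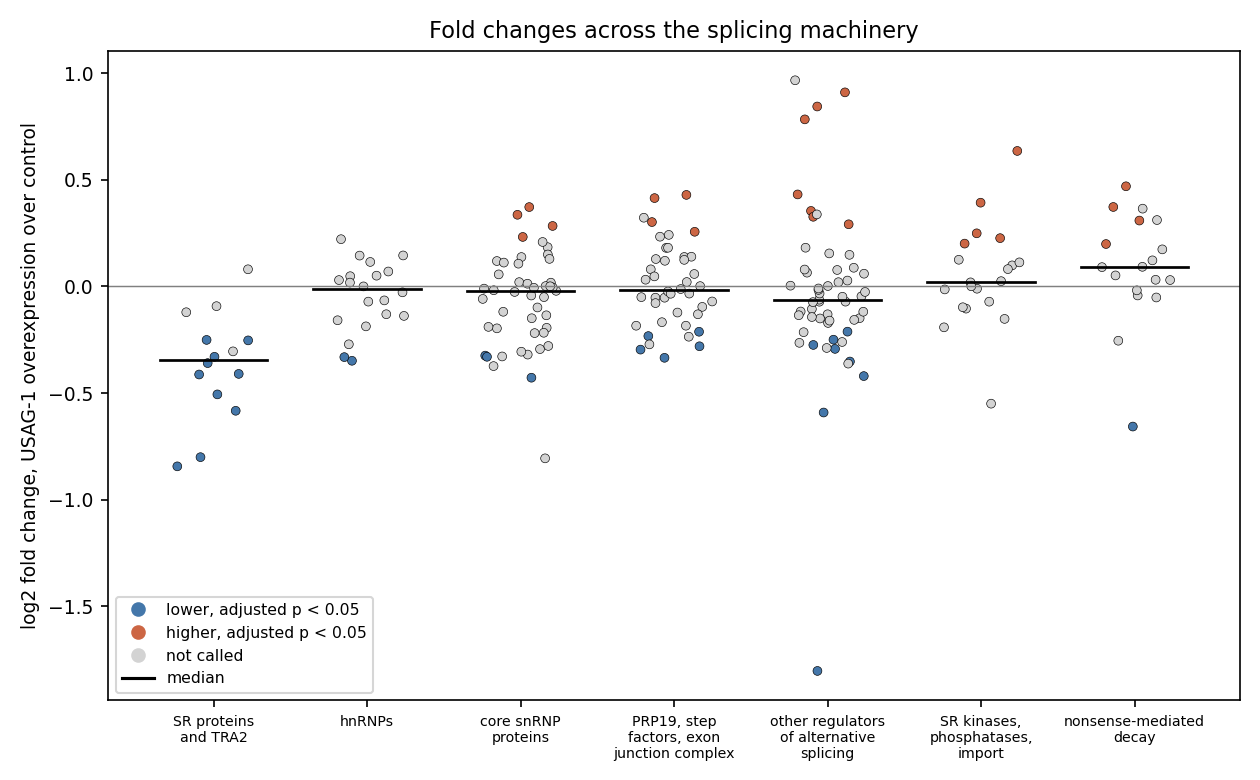
Log2 fold change (y axis, USAG-1 overexpression over control) of every tested gene in 7 groups of splicing and decay factors. Blue points were called lower, orange points higher and grey points not called, and the line is the group's median. The medians are -0.34 for SR proteins with TRA2 and between -0.06 and 0.09 for the other groups.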

How the data were processed

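RNA of 3 control and 3 USAG-1-overexpressing HK-2 libraries was sequenced. Per the labels, RNA was poly(A)-selected with oligo(dT) beads and made into strand-specific paired-end libraries, while the series' design text names removal of ribosomal RNA. The submitters' processing notes name hg38, cutadapt 1.9 and FastQC. The aligner, the counting tool, its strand setting and the annotation are not given in the sources used here. The authors deposited 1 table of whole-number counts per gene, which are not normalized, although its name speaks of FPKM.

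Groups came from the sample titles. Nothing in the labels says that cultures were separate, so p-values measure the spread between these samples, which may be technical. After filterByExpr and TMM scaling, the quasi-likelihood test of edgeR 4.0.16 (R 4.3.3) was fitted with no replicate block. Benjamini-Hochberg adjustment ran over 18188 genes, with a threshold of 0.05 at any fold change. The tested genes held 99.9% of the counts. CPM are on the TMM scale, and 3 counts correspond to 0.0608 to 0.0719 CPM, the limit that a count of 0 allows. That limit and all intervals on counts leave out PCR duplication, because the reads carry no molecular identifiers. Standard errors (SE) were obtained as the log2 fold change over the root of F. Alternatives were DESeq2 size factors, library sizes alone, mitochondrially encoded genes left out of library sizes, DESeq2 1.42.0, limma-voom (limma 3.58.1), no filter, a minimum of 10 counts in each library, blocking on replicate number, and each library left out in turn.

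Every member could be named. Full values were given for members called and for the 2 most abundant uncalled members of each role, and the 2 genes of smallest p were taken from each other list, which was typed from general knowledge. Further genes of those lists, and other values shown in full, were chosen after they were seen. Members and lists were chosen with earlier results of these data known. On simulated data for USAG-1 overexpression against control, 17695 genes were tested with edgeR. It recovered 63.8% of genes changed by a log2 fold change of 1 and 84.7% of those changed by 2. False calls were 7.74% of all calls for edgeR, 23.0% for DESeq2 and 6.54% for limma-voom. Changes smaller than 1, as those of all members called, were not simulated, nor was a library that stands apart. Sequences were not used here, and some genes of the lists are not reported here.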

Additional observations from a re-analysis of the deposited data

How the results depend on the processing

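No member called with all libraries changed direction under any of the 14 alternatives. Uncalled members near 0 did change sign in some of them, namely SRSF9, PTBP2, ESRP1, HNRNPA1, HNRNPA2B1, HNRNPDL, HNRNPH2, HNRNPL and the pseudogenes HNRNPCP2, HNRNPCP7, HNRNPLP2 and HNRNPRP1. With each library left out in turn, the members called ranged from 8 to 27 (1 to 8 higher, 7 to 19 lower), all genes called from 1137 to 5091, SR and TRA2 genes called lower from 6 to 11, hnRNPs called from 1 to 10, and the members' median log2 fold change from -0.12 to -0.04. The lists ranged from 1 to 22 (core snRNP proteins, 7 with all libraries), 0 to 18 (PRP19 complex, steps and exon junction, 9), 7 to 29 (other regulators, 15), 1 to 11 (kinases, phosphatases and import, 5) and 1 to 9 (nonsense-mediated decay, 5). Without a filter on low counts, 3 core snRNP proteins, 2 kinases, phosphatases and import factors and 1 decay factor were called, beside 6.26% of all genes. With library sizes alone 3 decay factors were called, beside 16.1% of all genes. Under the replicate block 4 genes of the PRP19 list and 3 of the kinase list were called, 13 members and 2381 genes in all (13.1%). The cause of these moves was not tested. A fit with a library left out also has fewer samples. Same-numbered libraries correlated at 0.158, -0.112 and 0.118 in their deviations from group means, and not every library correlated best with its own number. With 3 libraries a group, these values cannot decide whether the numbers pair the samples. Under the other scalings, filters and tools, 13 to 15 members were called, beside 6.26% to 20.3% of all genes. SRSF10 lost its call in 10 of 14 alternatives. With 3 libraries a group and 1 control library that stands apart, some small changes of abundant genes could not be resolved, and isoforms were not measured.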

Other observations

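Counts of partner genes set against each other within a library gave further values, chosen after they were seen and given with no test. They are ratios of reads without division by transcript length, so only their change between libraries can be read. U2AF1 had 17.4, 16.1 and 17.7 reads per 100 reads of U2AF2 in control replicates 1, 2 and 3 and 12.2, 11.5 and 12.3 with USAG-1 overexpression. SRSF7 had 48.7, 47.2 and 49.2 reads per 100 of SRSF3 in control and 35.1, 33.0 and 35.7 with overexpression. TRA2A had 20.5, 20.4 and 20.9 reads per 100 of TRA2B and then 18.4, 17.3 and 17.5. In these pairs control replicate 3 lay close to the other control libraries. PTBP2 had 6.14, 6.6 and 3.70 reads per 100 of PTBP1 in control and 4.70, 4.11 and 4.27 with overexpression, where control replicate 3 was the lowest of all 6 libraries.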
